A study of Mus musculus with 7 samples.

Results

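The genes described here are 34 genes of the Notch pathway, taken by name as a set of its receptors, ligands, sugar-modifying and processing enzymes, nuclear partners and Hes and Hey targets. All 34 were found, by Ensembl identifier, among the 38124 genes of the count table. Notch is a receptor on the cell surface that is switched on by a ligand on a neighbouring cell. The bound receptor is cut, its intracellular part enters the nucleus and, with the DNA-binding protein Rbpj and a Mastermind co-activator, turns on genes such as *Hes1* and *Hes5*, whose proteins repress proneural genes. In the developing neocortex this keeps radial glia, the apical progenitors, undifferentiated, while differentiating neighbours carry the ligand Dll1.

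RNA was sequenced from basal progenitors (BPs), the neocortical progenitors that divide away from the ventricle, and from their progeny, which were sorted as High RFP cells. All embryos were heterozygous for *Tis21*-CreERT2, an allele in which the tamoxifen-activated recombinase takes the place of exon 1 of *Tis21* (*Btg2*), a gene of progenitors about to make neurons, and all received tamoxifen. The neocortex was electroporated in utero at E13.5 and collected at E15.5, 48 hr later. The control plasmid (3 libraries) carried a floxed membrane GFP followed by nuclear RFP behind the CAGGS promoter, and the conditional Sox9 expression plasmid (4 libraries) carried in addition the *Sox9* coding sequence ahead of the nuclear RFP. Cells of several embryos and mothers were pooled for each sort, so a library is a pool of embryos and not 1 animal. The titles number the controls 1, 2 and 4 and the Sox9 samples 1 to 4, and these numbers name the libraries below.

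Libraries held 4429704 to 12907778 counts, with the 4 Sox9-labelled libraries at 4429704 to 10520214. The labelled construct did not show as a higher *Sox9* count. *Sox9* (chromosome 11, 112782224 to 112787760, GRCm38) had 362, 1026 and 668 counts in control, against 370, 435, 277 and 177 in the Sox9-labelled libraries. Its CPM values (counts scaled to an equal library total after TMM normalisation) were 63.9 ± 27.5 (SD, n = 3) and 40.0 ± 8.33 (SD, n = 4), a log2 fold change of -0.68 ± 0.25 (SE, adjusted p = 0.0493). Counts from the plasmid and from the endogenous *Sox9* cannot be told apart in this table. All directions below therefore rest on the labels, and these are called the libraries labelled Sox9. Of the markers of the labelled cell type, *Eomes*, the transcription factor that defines most BPs, fell from 37.5 to 7.86 CPM (adjusted p = 4.87e-05). With *Eomes* included, 3 of 8 intermediate progenitor markers tested were lower at an adjusted p under 0.01, beside 3.88% of protein-coding genes. Neuronal markers were by far the most abundant, at 14000 to 17400 CPM summed over 10 genes in control and 12800 to 15000 in the libraries labelled Sox9, and 0 of the 10 passed at an adjusted p under 0.01 in edgeR, with 4 lower at an unadjusted p under 0.05.

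The 34 Notch pathway genes together took 0.0958% to 0.115% of all counts in each library, with 43 counts over the 7 libraries for *Dll4* and 17202 for *Ncstn*. Of the 34, 31 passed the filter on low counts, and *Dll4*, *Lfng* and *Hey2* did not. Only *Notch2* passed at an adjusted p under 0.01. It was the 1 gene lower in the libraries labelled Sox9, beside 3.88% of the 14267 protein-coding genes tested, and 0 were higher, beside 9.96%. In either direction this is 3.23% of the genes tested here and 13.8% of all. At an unadjusted p under 0.05 edgeR had 4 higher and 9 lower, and 42.4% of all protein-coding genes in either direction, while DESeq2 called 2 higher and 5 lower, beside 10.2% and 8.79% of the protein-coding genes it tested.

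With a looser limit, an adjusted p under 0.05, 3 of the 31 were higher (*Dll1*, *Notch3* and *Notch4*), beside 18.6% of protein-coding genes. At that limit 5 were lower (*Notch2*, *Hes1*, *Hes5*, *Ncstn* and *Rbpj*), beside 12.2%. *Notch4*, at 6 to 8 counts in control, passed the low-count filter only through the libraries labelled Sox9, which favoured a higher value. All control libraries lay below all libraries labelled Sox9 for 4 genes (*Notch3*, *Notch4*, *Dll1* and *Dll3*), beside 19.8% of protein-coding genes. Like *Notch4*, *Dll3* (5 to 9 counts in control) was kept by the filter only through the libraries labelled Sox9, which favoured this order. The reverse held for 5 genes (*Notch2*, *Rfng*, *Ncstn*, *Rbpj* and *Dtx1*), beside 18.4%. In either direction the groups were apart for 29.0% of the genes tested here and 38.1% of all. The median log2 fold change over the 31 was -0.02, and over all protein-coding genes it was -0.06. The genes were split almost evenly, 15 above 0 and 16 below, with 8 of them within 0.2 of 0 and 7 beyond 1 in either direction. In either direction, 25.8% of the 31 and 30.8% of all protein-coding genes passed the looser limit, so the list as a whole was called no more often than genes in general, and the results below concern single genes.

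**Figure D1:**
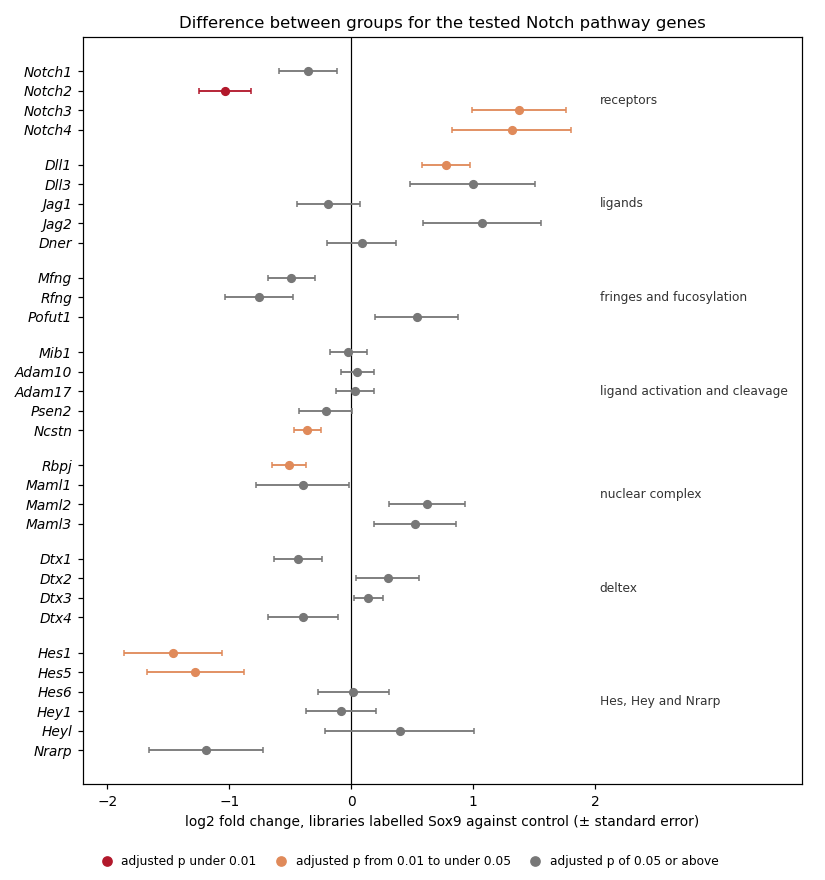
Log2 fold change (x axis, libraries labelled Sox9 against control, with standard error) for the 31 tested genes, grouped by role. *Notch2* at -1.03 is the only gene past an adjusted p of 0.01, and the receptors and the Hes, Hey and Nrarp group each hold genes on either side of 0.

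Levels of different genes were compared as CPM per kilobase of exon. In control the highest was *Ncstn*, a subunit of the gamma-secretase that cuts Notch, at 76.1 ± 6.25 (SD, n = 3), followed by the fringe *Mfng* at 44.8 ± 8.68 and the deltex gene *Dtx3* at 33.8 ± 1.67, and the libraries of the latter pair overlapped (34.8 to 50.5 and 32.2 to 35.5). *Hes6* at 18.1 ± 6.21 and *Adam10* at 15.7 ± 1.47 came next, and their control libraries overlapped. *Notch2* was the leading receptor at 11.7 ± 4.87, in a range of 6.70 to 16.4 that lay above all *Notch1* libraries (1.30 to 2.79). The targets *Hes1* (4.34 ± 2.48) and *Hes5* (4.32 ± 1.80) could not be ranked against each other, nor against *Hey1* (4.86 ± 1.60) or *Dll1* (3.97 ± 0.862). *Notch4* had the lowest mean, 0.0868 ± 0.0194, and overlapped *Hey2* (0.0832 to 0.208) and *Heyl* (0.0398 to 0.34).

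**Figure D2:**
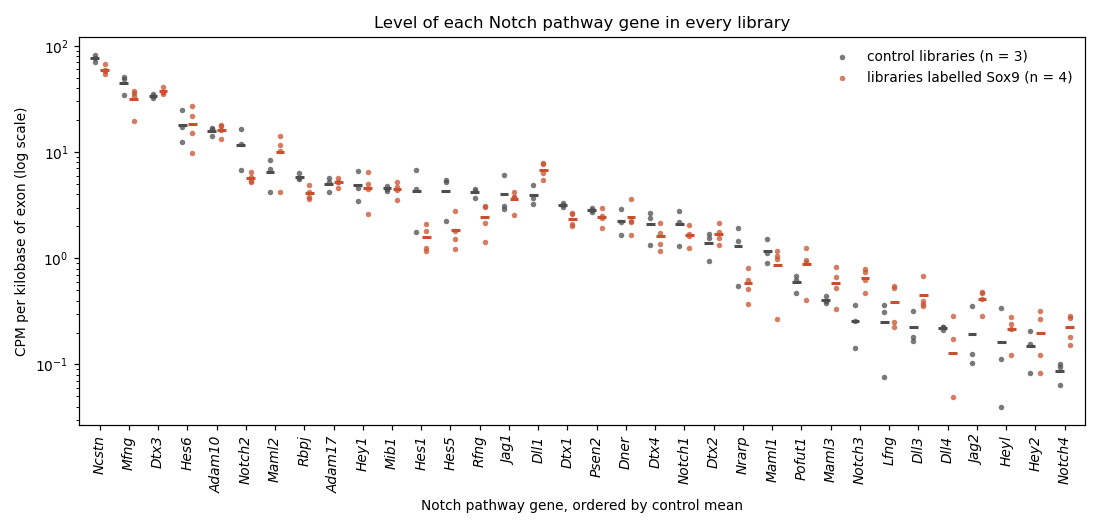
CPM per kilobase of exon (log scale) of each of the 34 genes in every library, ordered by control mean, with control and Sox9-labelled libraries as separate points. *Ncstn* leads at 76.1 in control and *Notch4* has the lowest mean, 0.0868, with overlap between neighbours.

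Among the receptors, *Notch2* fell, and *Notch3* and *Notch4*, both rare, were higher with adjusted p-values between 0.01 and 0.05. *Notch2* (chromosome 3, 98013527 to 98150361, plus strand) had 72.3, 177 and 128 CPM in control libraries 1, 2 and 4, and 55.8, 69.5, 57.2 and 63.3 in the Sox9-labelled libraries. The groups did not overlap, but control 1 lay within 3 CPM of the highest library labelled Sox9 while the other controls were far above it. The means were 126 ± 52.5 (SD, n = 3) and 61.4 ± 6.26 (SD, n = 4), 2.05-fold higher in control, with a log2 fold change of -1.03 ± 0.22 (SE, adjusted p = 0.00354). As in all bulk samples, fewer cells of a type and less RNA per cell cannot be told apart.

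*Notch2* passed the limit in 7 of 18 alternative settings that kept that limit, and was below 0 in all of them. Without control 1 it was -1.33 (adjusted p = 6.9e-05) and without control 2 it was -0.71 (adjusted p = 0.0241), and it passed only without control 1 or Sox9 2. Without each of the other 4 libraries the size stayed at -1.01 to -0.97 and the adjusted p was 0.0112 to 0.0139. Cyclic loess normalisation, which removes differences that follow expression level, gave -0.71 (adjusted p = 0.0619), and DESeq2 gave an adjusted p of 5.8e-05. *Notch1*, the receptor most studied in the nervous system, had 18.5, 39.7 and 31.4 CPM in control, against 23.9, 29.0, 17.6 and 23.1 in the Sox9-labelled libraries. Its groups overlapped, and its log2 fold change was -0.35 ± 0.24 (SE, adjusted p = 0.270), -0.62 without control 1 (adjusted p = 0.0425) and -0.10 without control 2 (adjusted p = 0.811).

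*Notch3*, a receptor best known from the smooth muscle and pericytes of vessels, had 1.15, 2.09 and 2.95 CPM in control, against 6.04, 5.10, 6.37 and 3.77 in the Sox9-labelled libraries. Every library labelled Sox9 was above every control, with a log2 fold change of 1.38 ± 0.38 (SE, adjusted p = 0.0149). *Notch4*, a receptor of endothelium, had 0.765, 0.521 and 0.814 CPM in control, against 2.20, 1.23, 1.45 and 2.31 in the Sox9-labelled libraries. It too was separated by group, at 1.32 ± 0.49 (SE, adjusted p = 0.0499), on 6 to 16 counts a library. *Notch4* passed the low-count filter only through the libraries labelled Sox9, and under cyclic loess its sign turned (-0.13, adjusted p = 0.866).

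Vessel markers are given beside these receptors. Over 12 endothelial markers the summed CPM was 7.46 to 16.6 in control and 23.5 to 58.6 in the libraries labelled Sox9. Of the 9 tested, 2 were higher, *Flt1* (1.54 to 8.86 CPM) and *Kdr* (1.19 to 5.18 CPM), both receptors for VEGF, and 1 of the 12 had at most 3 counts in every control. Of all protein-coding genes at their level (2 to 8 CPM), 22.0% were higher, and of those under 2 CPM 22.6%. Over 12 mural and meningeal markers the sum had a median of 12.6 in control, against 21.4 to 39.0, and 2 of 9 tested were higher, the collagen gene *Col1a1* and the peptidase gene *Anpep*. At an adjusted p under 0.05, 7 of 9 were higher in each list, beside 49.1% of protein-coding genes under 2 CPM and 35.6% from 2 to 8 CPM. The groups did not overlap for 5 of the endothelial and 6 of the mural and meningeal markers, all higher, beside 50.4% and 37.0% of those genes. Under cyclic loess none of the 4 named passed, with 1.73 for *Flt1* (adjusted p = 0.0164), 1.30 for *Kdr* (adjusted p = 0.0302), 1.61 for *Col1a1* (adjusted p = 0.0138) and 0.93 for *Anpep* (adjusted p = 0.129). *Pdgfrb*, which defines pericytes, was the only one of the 9 tested mural and meningeal markers with a log2 fold change below 0, at 1.84 ± 1.18 (SD, n = 3) against 0.849 ± 0.905 CPM (SD, n = 4; adjusted p = 0.304). The mural markers *Rgs5* (log2 fold change 0.97, adjusted p = 0.0352), *Kcnj8* (1.73, adjusted p = 0.0184) and *Abcc9* (1.46, adjusted p = 0.0239) were above 0 and separated by group. *Acta2*, in the same list, was above 0 (1.85, adjusted p = 0.0403), but its groups overlapped. Under cyclic loess none of these passed, with adjusted p of 0.19 for *Rgs5*, 0.138 for *Kcnj8*, 0.45 for *Abcc9* and 0.994 for *Acta2* (-0.007). The part of vessel cells in the *Notch3* and *Notch4* values was not tested.

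**Figure D3:**
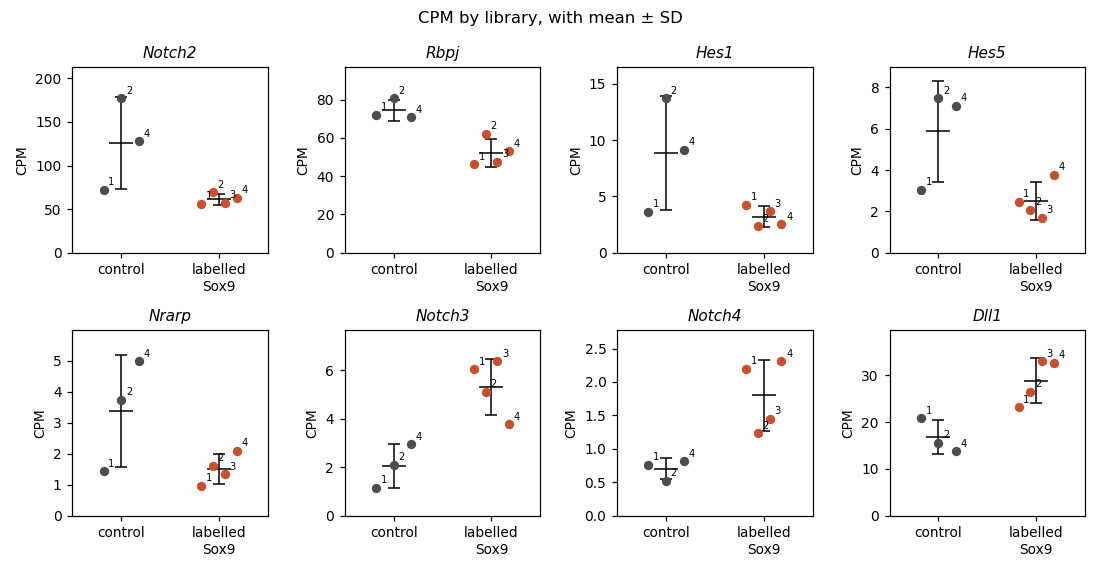
CPM in each library (points, numbered by replicate) with mean ± SD for 8 of the genes. *Notch2*, *Rbpj*, *Hes1*, *Hes5* and *Nrarp* have lower means in the libraries labelled Sox9 and *Notch3*, *Notch4* and *Dll1* higher ones, and control 1 is the lowest control for *Notch2*, *Hes1*, *Hes5* and *Nrarp*.

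The summed receptor mRNA overlapped between the groups, and the share of *Notch2* in it did not. Summed per kilobase, the 4 receptors came to 8.24, 19.5 and 14.6 in control and to 7.51 to 9.26 in the libraries labelled Sox9, so control 1 fell among the latter. The share of *Notch2* did not overlap, at 81.3% to 84.1% of the sum in control, control 1 included, and 65.7% to 71.2% in the libraries labelled Sox9. The share of *Notch1* went from 14.3% to 15.8% in control to 16.4% to 22.0%, and that of *Notch3* from 1.32% to 2.5% in control to 5.66% to 10.5%. The shares of a library add up to a whole, so a lower share of *Notch2* raises the others, and no test was run on them.

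Of the ligands, *Dll1* was higher and missed the limit narrowly, and neither Jagged gene passed. *Dll1* (chromosome 17, 15367354 to 15376872, minus strand) encodes the Delta ligand of newborn neurons and committed progenitors. It had 20.8, 15.6 and 13.8 CPM in control, against 23.2, 26.5, 33.0 and 32.7 in the Sox9-labelled libraries. All 4 libraries labelled Sox9 lay above the controls, with means of 16.8 ± 3.64 (SD, n = 3) and 28.8 ± 4.81 (SD, n = 4) and a log2 fold change of 0.78 ± 0.20 (SE, adjusted p = 0.0101). It passed the limit in 10 of 19 alternative settings that kept that limit, cyclic loess among them (0.93, adjusted p = 0.00854) and also DESeq2 (adjusted p = 0.00651). On leaving out 1 library it passed without control 1 (0.95, adjusted p = 0.00775) and without Sox9 1 (0.89, adjusted p = 0.00815), and not without any of the others.

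*Dll1* shares 20.5% of its exonic bases with *A930024N18Rik*, a long noncoding RNA gene on the opposite strand. Whether counting used strand is not given in the sources used here. *A930024N18Rik* had 12 to 25 counts in a library, beside 136 to 295 for *Dll1*, and its own log2 fold change was 0.53 (adjusted p = 0.346). The same limit holds for other overlaps on the opposite strand, the largest being 31.8% of the exonic bases of *Hes5* with *Gm20421*, which had 2 counts in all. *Ncstn* shares 4.91% of its exonic bases with *Copa* (30200 counts in all, beside 17202 for *Ncstn*) and *Adam17* 4.35% with *Iah1* (1978 counts, beside 2296).

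*Dll3*, a Delta protein that does not activate Notch on neighbouring cells, had 0.478, 0.521 and 0.915 CPM in control, against 1.92, 1.13, 1.01 and 1.05 in the Sox9-labelled libraries. The groups were separated, on 5 to 14 counts a library, but *Dll3* passed the low-count filter only through the libraries labelled Sox9. The difference of 1.00 ± 0.52 (SE, adjusted p = 0.151) did not pass and turned to -0.59 under cyclic loess. *Dll4*, the ligand of sprouting endothelium, had 9, 10 and 8 counts in control, against 8, 2, 6 and 0 in the Sox9-labelled libraries, too few for a test.

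*Jag1*, a Jagged ligand present in progenitors and vessels, had 16.8, 35.7 and 18.2 CPM in control, against 22.1, 22.0, 14.8 and 24.5 in the Sox9-labelled libraries, with a log2 fold change of -0.19 ± 0.26 (SE, adjusted p = 0.615). *Jag2*, the other Jagged ligand, had 2.49, 0.869 and 0.712 CPM in control, against 2.88, 3.31, 2.01 and 3.36, so that only control 1 reached the Sox9-labelled range (1.08 ± 0.48 SE, adjusted p = 0.10). The neuronal EGF-repeat protein gene *Dner* had 7.93 to 14.0 CPM in control and 7.97 to 17.2 in the Sox9-labelled libraries, at 0.09 ± 0.28 (SE, adjusted p = 0.839). Per kilobase, the 5 classical ligands summed to 8.57, 10.4 and 7.04 in control and 10.7 to 12.8 in the libraries labelled Sox9. The share of *Dll1* in that sum was 35.8% to 57.6% in control and at least 51.6% in each library labelled Sox9, and that of *Jag1* was 33.7% to 59.1% against 22.7% to 35.6%. Both shares overlapped between the groups.

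**Figure D4:**
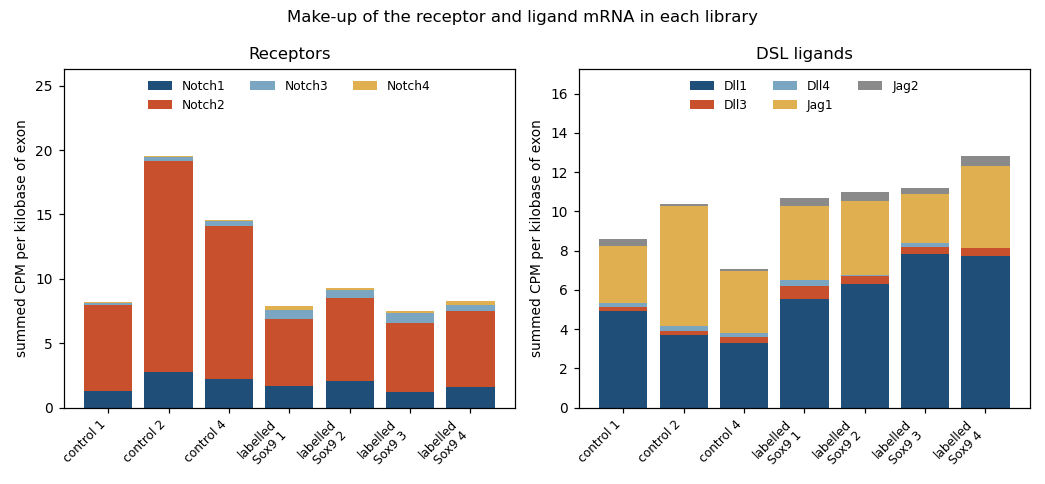
Summed CPM per kilobase of exon of the receptors and of the ligands in each library, stacked by gene. The receptor sum of control 1 (8.24) is near those of the libraries labelled Sox9, but its *Notch2* share (81.3%) is that of a control, and *Dll1* and *Jag1* make up most of the ligand mRNA in every library.

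Fringes add a sugar to fucose on the receptor and so change which ligands it answers, and Pofut1 attaches that fucose. *Mfng* made up 88.8% to 95.3% of fringe mRNA per kilobase over the 7 libraries. It had 98.7, 143 and 139 CPM in control, against 102, 107, 55.9 and 96.7 in the Sox9-labelled libraries (log2 fold change -0.49 ± 0.20 SE, adjusted p = 0.0671), and control 1 overlapped the other group. *Rfng* had 10.7, 9.21 and 11.2 CPM against 7.69, 7.56, 5.37 and 3.57, without overlap, at -0.75 ± 0.28 (SE, adjusted p = 0.0505). *Lfng* was near the limit of detection, at 2, 9 and 9 counts in control, against 10, 14, 5 and 3 in the Sox9-labelled libraries, too few for a test. *Pofut1* had 4.69 to 6.82 CPM in control and 3.97 to 12.4 in the Sox9-labelled libraries, at 0.54 ± 0.34 (SE, adjusted p = 0.242).

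Most genes of ligand activation and receptor cleavage were close to 0. The ubiquitin ligase gene *Mib1*, needed for a ligand to signal, had 47.3 to 52.8 CPM in control and 38.4 to 57.0 in the Sox9-labelled libraries, a log2 fold change of -0.02 ± 0.15 (SE, adjusted p = 0.919). Of the surface proteases that cut the bound receptor, *Adam10* had 69.0 to 82.5 CPM in control and 64.8 to 88.4 in the Sox9-labelled libraries, at 0.05 ± 0.14 (SE, adjusted p = 0.799). *Adam17* had 30.2 to 41.1 and 32.7 to 40.7 CPM, at 0.03 ± 0.16 (SE, adjusted p = 0.898). With standard errors of 0.14 to 0.16 these are among the more precise values here, and the sign of all of them turned under some setting. The gamma-secretase gene *Psen2* had 12.3 ± 0.483 CPM in control (SD, n = 3) and 10.6 ± 1.86 in the Sox9-labelled libraries (SD, n = 4), at -0.21 ± 0.22 (SE, adjusted p = 0.488).

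*Ncstn* was the exception in this group. Its CPM was 304, 327 and 277 in control, against 233, 267, 215 and 228 in the Sox9-labelled libraries. No library of one group entered the range of the other, and the log2 fold change was small but precise, at -0.36 ± 0.11 (SE, adjusted p = 0.0273). Of the 1608 protein-coding genes with a mean of at least 128 CPM, the median was -0.28, so *Ncstn* lay near the middle of genes of its level.

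Of the nuclear partners, *Rbpj* (chromosome 5, 53466152 to 53657362, plus strand), the DNA-binding protein through which all Notch receptors act, was lower. It had 72.1, 80.7 and 70.7 CPM in control, against 46.3, 62.3, 47.6 and 53.1 in the Sox9-labelled libraries. The groups did not overlap, and here control 1 was as high as control 4, at a log2 fold change of -0.51 ± 0.14 (SE, adjusted p = 0.0133). Under cyclic loess it was -0.29 (adjusted p = 0.162). The Mastermind co-activator gene *Maml2* had 27.6, 55.4 and 45.8 CPM in control, against 93.4, 76.1, 27.9 and 67.3 in the Sox9-labelled libraries, with Sox9 3 at the level of the lowest control and the other 3 above all controls (0.62 ± 0.31 SE, adjusted p = 0.137). The other Mastermind genes overlapped between groups. *Maml1* had 4.97 to 8.43 CPM in control and 1.47 to 6.48 in the Sox9-labelled libraries (-0.40 ± 0.38 SE, adjusted p = 0.454), and *Maml3* 4.01 to 4.58 and 3.50 to 8.65 (0.52 ± 0.34 SE, adjusted p = 0.247).

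The targets were divided. *Hes1*, *Hes5* and *Nrarp*, which respond directly to Notch in neural progenitors, had log2 fold changes below -1, whereas *Hes6*, *Hey1* and *Heyl* were within 0.4 of 0. *Hes1* (chromosome 16, 30064384 to 30067796, plus strand), a repressor that keeps progenitors from differentiating, had 3.63, 13.7 and 9.15 CPM in control, against 4.26, 2.36, 3.69 and 2.52 in the Sox9-labelled libraries. Control 1 lay inside the range of the libraries labelled Sox9, so the groups overlapped, and the log2 fold change was -1.46 ± 0.40 (SE, adjusted p = 0.0142). *Hes5* (chromosome 4, 154960923 to 154962371, plus strand), a second such repressor of radial glia, had 3.06, 7.47 and 7.12 CPM against 2.47, 2.08, 1.68 and 3.77.

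*Hes5* had the same order of controls as *Hes1*, with control 1 below Sox9 4 and well below the other controls, at -1.28 ± 0.40 (SE, adjusted p = 0.0247). *Nrarp*, which encodes a small protein that binds the Notch intracellular domain and dampens it, had 1.43, 3.74 and 4.98 CPM in control, against 0.961, 1.61, 1.34 and 2.10 in the Sox9-labelled libraries (-1.19 ± 0.47 SE, adjusted p = 0.0631). For all 3 genes, controls 2 and 4 were above every library labelled Sox9 and control 1 was not. Without control 1 the values were -1.85 for *Hes1* (adjusted p = 0.00188) and -1.60 for *Hes5* (adjusted p = 0.00883), which made the list 1 higher and 3 lower, beside 5.82% and 3.12% of protein-coding genes in that fit. Neither passed when any other library was left out, with the smallest differences without control 2, at -0.997 for *Hes1* (adjusted p = 0.102) and -1.07 for *Hes5* (adjusted p = 0.101).

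The sums over radial glia and over cycling markers, too, were lowest in control 1 among the controls, though *Ptprz1* was lowest in control 2. *Eomes* was also lowest in control 1, at 25.2, 42.9 and 44.5 CPM in controls 1, 2 and 4. The sums over 8 intermediate progenitor markers were 819, 947 and 812 CPM in these controls and 533 to 687 in the Sox9-labelled libraries. Over 13 radial glia markers the summed CPM was 940 in control 1, 1620 in control 2 and 1490 in control 4, and 539 to 667 in the libraries labelled Sox9. Of the 12 tested, 8 were lower, led by *Tnc*, *Mfge8* and *Prom1*, and their median was -1.18 on the log2 scale. Of all protein-coding genes 3.88% were lower, with 4.37% from 8 to 32 CPM, 6.33% from 32 to 128 and 8.46% above. Under cyclic loess the radial glia markers *Pax6* (adjusted p = 0.0349) and *Fabp7* (adjusted p = 0.0453) no longer passed. Over 12 cycling markers the sums were 622, 1160 and 827 in control and 205 to 243 in the libraries labelled Sox9, with 11 of 12 lower, led by *Top2a*, *Plk1* and *Mcm3*, and a median of -2.21. Control 1 was the lowest control for 17 of the 34 Notch pathway genes, control 4 for 11 and control 2 for 6. The same count was not made over all genes. The part of the share of progenitors in the *Notch2*, *Hes1*, *Hes5* and *Nrarp* values was not tested.

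The promoters of the targets are shown because the low genes are known to answer to Rbpj, whose recognition site holds the letters GTGGGAA. These were searched on both strands in RefSeq windows of 300 bases (250 before to 50 after the start, GRCm38.p6). Of 32851 windows, 2097 (6.38%) held at least 1 match and 84 (0.256%) at least 2. A window was given for 27 of the 34 genes, not for *Mfng*, *Mib1*, *Dtx3*, *Dtx4*, *Hes1*, *Hey1* and *Heyl*. Matches lay in those of *Lfng*, *Psen2*, *Hes5* and *Hey2*, with 2 each in *Hes5* (-226 to -220 and -83 to -77 from the start) and *Hey2* (-207 to -201 and -4 to 3). The window of *Nrarp* held none. Below are the *Hes5* stretch chr4:154960673-154960922 (plus strand), 60 bases of *Hey2* around its first match, chr10:30842954-30843013 (minus strand), and the *Nrarp* stretch chr2:25180608-25180757 (plus strand). All are written 5′ to 3′ on the gene's strand, with matches on either strand in capitals.
Hes5: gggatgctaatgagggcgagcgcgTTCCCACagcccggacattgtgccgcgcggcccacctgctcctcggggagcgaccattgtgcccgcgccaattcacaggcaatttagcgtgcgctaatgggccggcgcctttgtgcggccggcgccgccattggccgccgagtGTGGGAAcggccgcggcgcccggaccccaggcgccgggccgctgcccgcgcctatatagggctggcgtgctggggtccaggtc
Hey2: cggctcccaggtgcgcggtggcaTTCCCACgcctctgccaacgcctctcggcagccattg
Nrarp: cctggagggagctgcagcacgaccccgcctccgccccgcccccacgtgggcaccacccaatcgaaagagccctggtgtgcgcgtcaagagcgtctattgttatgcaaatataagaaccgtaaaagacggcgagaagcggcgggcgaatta

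*Hes5*, with 2 matches, and *Nrarp*, with none in this window, had similar log2 fold changes, and *Hey2* was too rare to compare, at 4, 11 and 7 counts in control, against 9, 4, 5 and 7 in the Sox9-labelled libraries. A match is a description of the letters and not a site shown to be bound.

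*Hes6*, which acts against *Hes1* and promotes differentiation, ranged as widely within the groups as between them. It had 44.8, 31.0 and 22.6 CPM in control, against 17.9, 27.3, 39.6 and 49.3 in the Sox9-labelled libraries, with a log2 fold change of 0.02 ± 0.29 (SE, adjusted p = 0.968). *Hey1*, a bHLH repressor downstream of Notch, had 21.5, 14.9 and 11.2 CPM against 8.52, 16.3, 14.5 and 21.2 (-0.08 ± 0.29 SE, adjusted p = 0.850). For both, control 1 was the highest control, the reverse of its place for *Hes1* and *Hes5*. *Heyl*, at 2 to 20 counts a library, had 0.40 ± 0.61 (SE, adjusted p = 0.654).

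The deltex genes encode ubiquitin ligases that act on Notch trafficking. *Dtx1*, itself a Notch target in other cells, had 15.9, 17.4 and 16.8 CPM in control, against 11.0, 10.6, 13.9 and 14.1 in the Sox9-labelled libraries. These did not overlap, but the difference of -0.44 ± 0.20 (SE, adjusted p = 0.103) did not pass. *Dtx3* had 82.8 to 91.4 CPM in control and 89.8 to 105 in the libraries labelled Sox9 (0.14 ± 0.12 SE, adjusted p = 0.369), and 0.38 under cyclic loess (adjusted p = 0.0411). *Dtx2* had 6.69 to 12.0 CPM in control and 9.44 to 15.2 in the Sox9-labelled libraries (0.30 ± 0.26 SE, adjusted p = 0.395), and *Dtx4* 7.04 to 13.9 and 6.18 to 11.3 (-0.40 ± 0.29 SE, adjusted p = 0.305), with overlap in both.

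In these libraries the difference between the groups followed expression level across all genes, so each gene was also set beside protein-coding genes of similar mean CPM. The 2420 genes under 2 CPM had a median log2 fold change of 1.5, and the median was 0.52 for the 3236 genes from 2 to 8, -0.10 for the 3590 from 8 to 32, -0.22 for the 3413 from 32 to 128 and -0.28 for the 1608 above. *Notch4* (1.32), *Dll3* (1.00) and *Heyl* (0.40) all lay below the median of their bin, though above 0. *Notch3* at 1.38 was above its median of 0.52 and below the 90th percentile of 2.23.

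Of the 31 genes, 22 lay between the 10th and 90th percentiles of their bin, a band that holds 80% of all genes by construction. The 6 below it were *Hes1*, *Hes5* and *Nrarp*, against a 10th percentile of -0.49, *Rfng*, against -0.59, and *Notch2* and *Rbpj*, against -0.49. The 3 above it were *Dll1*, against a 90th percentile of 0.50, and *Maml2* and *Dtx3*, against 0.09. Cyclic loess, which takes this trend out, gave -1.64 for *Hes1* (adjusted p = 0.0195), -1.69 for *Hes5* (adjusted p = 0.0144) and -1.87 for *Nrarp* (adjusted p = 0.0172). So the values of these low genes moved further from 0 under it, whereas *Notch3* went to 0.77 (adjusted p = 0.164). In that fit *Dll1* was the only call of the list, 1 higher and 0 lower, beside 2.21% and 1.77% of protein-coding genes.

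**Figure D5:**
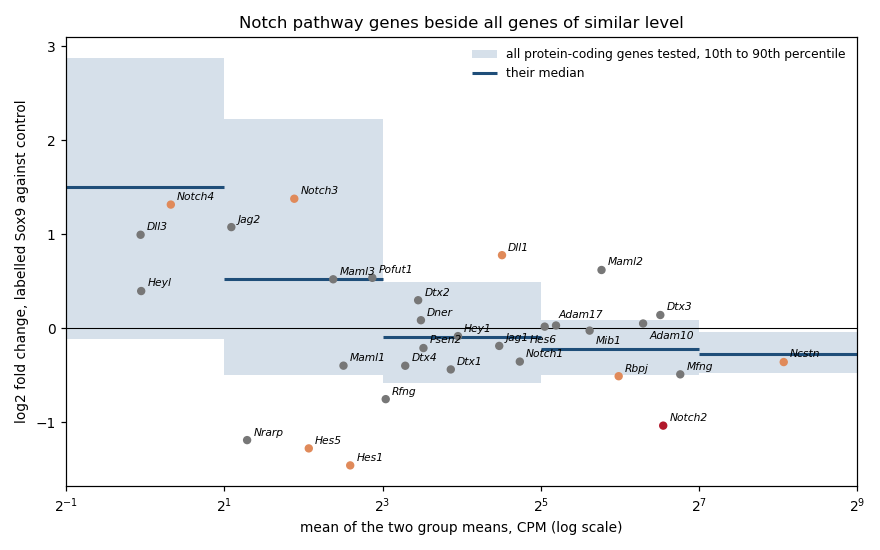
Log2 fold change (y axis) against mean CPM (log2 axis) for the 31 tested genes, over the 10th to 90th percentile and median of all protein-coding genes in the same range of level. *Hes1*, *Hes5* and *Nrarp* lie below a band whose median is 0.52, *Dll1* above its band and *Notch2* below it, while *Notch3* and *Notch4* lie within theirs.

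A further 51 genes of the pathway, among them non-classical ligands, other ligases, co-repressors and co-activators, were read in the same fit. Of 48 tested, 2 rose, beside 9.96% of protein-coding genes, and 2 fell, beside 3.88%, with 25 of the 48 above 0 and a median of 0.06 on the log2 scale. *Dlk1*, a Delta-like protein that lacks the receptor-activating domain, had 0.956, 0.956 and 0.203 CPM in control. In the Sox9-labelled libraries it had 5.91, 4.54, 5.25 and 3.36, all of them higher (2.72 ± 0.48 SE, adjusted p = 0.00139). At 2 to 11 counts in control, *Dlk1* passed the low-count filter only through the libraries labelled Sox9, which favoured a higher value. *Neurl1b*, a ligase that acts on ligands, rose from 7.19 ± 2.47 (SD, n = 3) to 15.2 ± 3.30 CPM (SD, n = 4; 1.07 ± 0.27 SE, adjusted p = 0.00924). The transcription cofactor *Snw1*, which binds Rbpj, fell from 294 ± 20.9 to 218 ± 10.4 CPM (-0.43 ± 0.11 SE, adjusted p = 0.00816), and the deacetylase *Hdac1* fell from 118 ± 21.7 to 74.2 ± 7.33 CPM (-0.67 ± 0.14 SE, adjusted p = 0.00357). *Dlk1* passed in all 7 fits that left out 1 library, *Neurl1b* and *Hdac1* in 2 each and *Snw1* in 0. Under cyclic loess none of the 4 passed (adjusted p from 0.0174 to 0.26). The log2 fold changes were then 1.66 for *Dlk1*, 1.07 for *Neurl1b*, -0.42 for *Hdac1* and -0.17 for *Snw1*. *Hes2*, *Hes3* and *Hes7* were below the filter.

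Other cell types that carry Notch genes were read by their markers. Oligodendrocyte precursor markers were nearly absent in control, at a summed 1.24 to 2.52 CPM. Of the 8 found, 6 had 3 counts or fewer in every control, with *Nkx2-2* at 0 in all 3. Their sum was 14.2 to 43.8 CPM in the libraries labelled Sox9, with 5 of 6 tested higher, led by *Pdgfra*, *Bcas1* and *Olig1*. Of all protein-coding genes, 22.6% under 2 CPM and 22.0% from 2 to 8 CPM were higher. The controls alone would have passed none of the 6 tested through the low-count filter, so their direction was favoured in advance. Of 8 astrocyte markers tested, *Slc1a2* and *S100b* were higher and *Aldoc* and *Aldh1l1* lower. Called higher were 1 of 9 for microglia (*C1qa*), 2 of 3 for choroid plexus (*Ttr* and *Folr1*) and 1 of 5 for erythroid cells (*Hba-a2*). None of these lists had a gene called lower, and the shares of all protein-coding genes higher were again 22.6% under 2 CPM and 22.0% from 2 to 8 CPM. *S100b*, *C1qa* and the 3 choroid plexus markers tested also passed the filter only through the libraries labelled Sox9. Under cyclic loess *Pdgfra*, *Bcas1*, *Aldoc* and *Aldh1l1* still passed, and *Olig1* (1.21, adjusted p = 0.0897), *Olig2* (0.90, adjusted p = 0.276), *Cspg4* (0.94, adjusted p = 0.269), *Slc1a2* (0.94, adjusted p = 0.0225), *S100b* (0.63, adjusted p = 0.412), *C1qa* (0.88, adjusted p = 0.339), *Ttr* (2.20, adjusted p = 0.0187), *Folr1* (1.15, adjusted p = 0.116) and *Hba-a2* (2.06, adjusted p = 0.103) did not. Of 3 interneuron markers tested edgeR called 0, with 1 higher at an unadjusted p under 0.05. The part of these cells in the values of the Notch pathway genes was not tested.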

How the data were processed

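Count and FPKM tables of 7 libraries were used (3 control, 4 labelled Sox9 by title), with 0 columns outside these samples. Per the study's methods and the submitters' processing notes, the authors made poly-dT primed, PCR-amplified cDNA without molecular identifiers, trimmed single-end reads, aligned them to GRCm38/mm10 with STAR 2.5.2b and deposited raw counts per Ensembl gene. The deposited FPKM values matched a scaling by whole gene span rather than exon length for 12 of 13 genes checked, so levels here were recomputed from counts with GENCODE M21 exon lengths. Members and gene lists were chosen with earlier results of these data known.

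Counts were tested with edgeR 4.0.16 (quasi-likelihood, TMM, filterByExpr, two-sided) in R 4.3.3, with Benjamini-Hochberg adjustment over all 16522 genes tested and a limit of adjusted p under 0.01. Shares called are of the 14267 protein-coding genes among them. The script was tested on simulated data. Alternatives were DESeq2 1.42.0, limma 3.58.1 (cyclic loess, FPKM), other scalings, filters and limits, a replicate block and leaving out each library. Named are all members, other pathway genes past the limit and up to 3 genes per marker list with the smallest p, plus defining markers and every marker called where few were called. Marker lists covered cycling cells, radial glia, neurons, intermediate progenitors, interneurons, astrocytes, oligodendrocyte precursors, microglia, endothelium, mural and meningeal cells, erythroid cells and choroid plexus. Nothing in the labels says that libraries came from separate litters, so p-values measure the spread between these libraries. Depth was 4429704 to 12907778 counts, and precision is limited for genes under about 10 counts.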

Additional observations from a re-analysis of the deposited data

Results flagged for a closer look

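Among the 4 libraries labelled Sox9, 1 sample stood far from the others for *Dll3*: Sox9 1, at 1.92 CPM, against 1.13, 1.01 and 1.05 in the other three. Its gap to the nearest library was 0.861 of the whole range, above Dixon's 95% critical value for 4 samples. All 34 genes were checked in this way and only *Dll3* passed, where chance alone marks about 1 in 20. The value rests on 14 counts in Sox9 1 and 5 to 12 in the others, and *Dll3* passed no test between the groups.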

How the results depend on the processing

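Outside the leave-one-out fits, 311 values of single genes kept direction and side of the limit, 28 passed it newly, 6 no longer passed and 30 turned sign. Over these settings 1.1% to 18.6% of protein-coding genes were called higher and 0.709% to 12.2% lower.

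Of the 34 genes, 31 were tested in most settings, 34 with DESeq2 or no filter, 33 without any 1 control, 25 with at least 10 counts and 9 at an FPKM of at least 1. Those called higher (0 in the report) numbered 2 with DESeq2, upper quartile scaling or no filter, 1 with cyclic loess, at least 10 counts in every library, protein-coding genes only or either FPKM test, 3 at an adjusted p under 0.05, and 0 to 1 on leaving out a library (1 without control 1 or Sox9 1). Genes called lower (1) numbered 5 with DESeq2, no filter or an adjusted p under 0.05, 3 with DESeq2 size factors, 0 with cyclic loess, at least 10 counts, an FPKM of at least 1 (*Notch2* untested), a test against a 1.5-fold change or either FPKM test, and 0 to 3 on leaving out a library (3 without control 1, 1 without Sox9 2 and 0 without any other). Their median (-0.02) was -0.11 with DESeq2 size factors, 0.18 with upper quartile scaling (which moved the median of all genes to 0.20), -0.10 with cyclic loess, 0.06 with at least 10 counts, -0.19 at an FPKM of at least 1, and 0.184 and 0.089 with pseudocounts of 0.01 and 0.1 FPKM.

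Of the other pathway genes 41 to 51 were tested, but 15 at an FPKM of at least 1. Those called higher (2) numbered 4 with DESeq2 or upper quartile scaling, 1 with DESeq2 size factors, at least 10 counts or the 1.5-fold test, 0 with cyclic loess or an FPKM of at least 1, 6 with no filter, 8 at 0.05 and 1 to 3 on leaving out a library (1 without control 2, Sox9 1 or Sox9 4). Those called lower (2) numbered 6 with DESeq2, 4 with DESeq2 size factors, 5 with no filter, 7 at 0.05, 1 with protein-coding genes only, 0 with upper quartile scaling, cyclic loess, at least 10 counts, an FPKM of at least 1, the 1.5-fold test or either FPKM test, and 0 to 2 on leaving out a library (2 without control 1, 1 without Sox9 2 and 0 without any other). Their median (0.06) was -0.021 with DESeq2 size factors, 0.25 with upper quartile scaling, -0.082 at an FPKM of at least 1, 0.22 with 0.01 FPKM and -0.038 (without Sox9 3) to 0.15 (without control 4) on leaving out a library.

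Of the genes whose sign turned, *Notch4* had an adjusted p under 0.05 in the report, and *Dll3* had one only with FPKM (0.0447 and 0.0479 with the lower and higher pseudocount). Under cyclic loess *Notch4* was -0.13, *Dll3* -0.59, *Heyl* -0.88, *Jag1* 0.028 and *Mib1* 0.17. Under upper quartile scaling *Jag1* was 0.01, *Mib1* 0.18 and *Hey1* 0.12. With 0.01 and 0.1 FPKM *Jag1* was 0.11 and 0.089, *Mib1* 0.18 and 0.16, and *Hey1* 0.13 and 0.13. With DESeq2 *Adam10* was -0.032, *Adam17* -0.052 and *Hes6* -0.054, with its size factors -0.032, -0.052 and -0.06, and with no filter -0.036, -0.058 and -0.063, with *Dner* at -0.003. With at least 10 counts *Mib1* was 0.11 and *Hey1* 0.06, with protein-coding genes only *Mib1* was 0.015, and at an FPKM of at least 1 *Hey1* was 0.083. Leaving out a library gave *Jag1* -0.40 to 0.25, *Dner* -0.084 to 0.33, *Mib1* -0.081 to 0.13, *Adam10* -0.005 to 0.19, *Adam17* -0.079 to 0.12, *Hes6* -0.17 to 0.29, *Hey1* -0.26 to 0.18 and *Heyl* -0.026 to 1.51. The cause was not tested. Depth limits the genes under about 10 counts a library, *Dll3*, *Dll4*, *Lfng*, *Hey2*, *Heyl* and *Notch4* among them.

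Libraries with the same replicate number did not deviate together (correlations of -0.0356, 0.118 and -0.00485 for numbers 1, 2 and 4), and not every library correlated best with its own number. A replicate block gave 0 called higher and 0 lower of the 31, with *Notch2* at -0.92 (adjusted p = 0.0124), *Jag1* at 0.027 and *Hes6* at -0.13, and 2 higher and 0 lower of the other pathway genes, whose median was -0.017. Over protein-coding genes it called 340 higher and 213 lower, against 1421 and 553 without it.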
